A study of Mus musculus with 7 samples.

Results

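RNA sequencing libraries of CD43- splenocytes from wild type and CD19creFoxp1 cKO mice were compared by the sequencing lane on which they ran. All 7 libraries of the series entered the comparison. The 3 libraries of lane 7 were wild type 1, cKO 2 and cKO 3, and the 4 libraries of lane 5 were wild type 2, wild type 3, cKO 1 and cKO 4, as read from the lane in each description label. All mice were C57Bl/6, and in every group spleen cells carrying CD43 had been removed magnetically before total RNA was collected. In the cKO, Cre acts in B cells to delete Foxp1, and no Cre-only control is named. Nothing states that the libraries are from different animals, so a p-value here reflects sample-to-sample spread that may be technical. The labels give no date or preparation batch, so the lane, the animals, the cell preparation and the library preparation cannot be told apart. Values are FPKM, in which the fragments of a gene are divided by its transcript length and by the fragments mapped in the library. In lists of values below, lane 7 follows the order wild type 1, cKO 2, cKO 3, and lane 5 the order wild type 2, wild type 3, cKO 1, cKO 4. A lane difference is lane 7 minus lane 5 on log2(FPKM + 0.5), fitted by limma with genotype as a term, and a gene was called past a Benjamini-Hochberg adjusted p of 0.05.

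Spleen holds resting B cells in follicles and marginal zones beside T cells, natural killer (NK) cells and dendritic cells. The red pulp filters blood: its macrophages take up worn red cells and recycle their iron, and in mice it also makes red cells, so erythroblasts and reticulocytes are part of a mouse spleen suspension. CD43, encoded by Spn, is carried by T cells, NK cells, myeloid cells, plasma cells and some B cells, and its depletion is a usual way to enrich resting follicular and marginal zone B cells. Lymphocytes taken from tissue also switch on stress and immediate early genes within the time of a cell preparation.

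In a principal component analysis of the genes tested, component 1 (61.7% of the variance) placed the lane 7 libraries at 25.8, 57.6 and 54.8 and the lane 5 libraries at -36.7, -48.9, -2.27 and -50.4, with cKO 1 nearest to lane 7. Foxp1, the targeted gene, stood at 33.4, 18.9 and 18.4 FPKM in lane 7 and 38.3, 42.7, 21.3 and 28.97 FPKM in lane 5, each cKO library below each wild type library, and its lane difference of -0.35 (SE 0.16) missed the threshold (adjusted p = 0.0684). Rows at or above 1 FPKM numbered 9466 to 9808 in lane 7 and 9590 to 10396 in lane 5. The weight of 1 fragment, the most frequent low value of FPKM times transcript length in kilobases, which falls with depth, was 0.0162 to 0.0188 in lane 7 and 0.0197 to 0.0253 in lane 5 (two-sided exact permutation of lanes within genotype, p = 0.0556, the smallest that 18 assignments allow). Xist stood between 16.9 and 33.3 FPKM in all 7 libraries and 4 Y-linked genes at or below 0.0162 FPKM. Library cKO 4 stood apart in small RNA genes, which held 11.7% of its summed FPKM against 40.0% to 59.0% in the other 6 libraries.

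Of 10065 genes tested, 873 (8.67%) were higher in lane 7 and 5860 (58.2%) lower. Lanes did not overlap, with each lane 7 library above or below each lane 5 library, for 285 genes higher (2.83%) and 5521 lower (54.9%). The median lane difference of all genes was -0.50, with quartiles of -0.78 and -0.18, so most of the transcriptome had lower FPKM in lane 7. Nothing in the files fixes the absolute scale, and with each library centred on its median gene 2441 genes (24.3%) were higher and 2407 (23.9%) lower. Under both scalings 856 genes were called higher and 2407 lower, and no gene was called in opposite directions (limma in both). Centring raised every lane difference by the same amount, so a gene called higher as deposited could not be called lower after it. Counts of lists below are read against these shares, 8.67% higher and 58.2% lower as deposited and 24.3% and 23.9% after median centring. List medians are given as deposited, and a relative median is the list median minus that of all genes. A called difference of at least 1 on the log2 scale was found in 488 genes upward and in 1063 downward. Fitted within each genotype, 870 of the 873 genes called higher had a positive difference in both and 5855 of the 5860 called lower a negative one, which is a description, since the same libraries gave the calls.

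**Figure D1:**
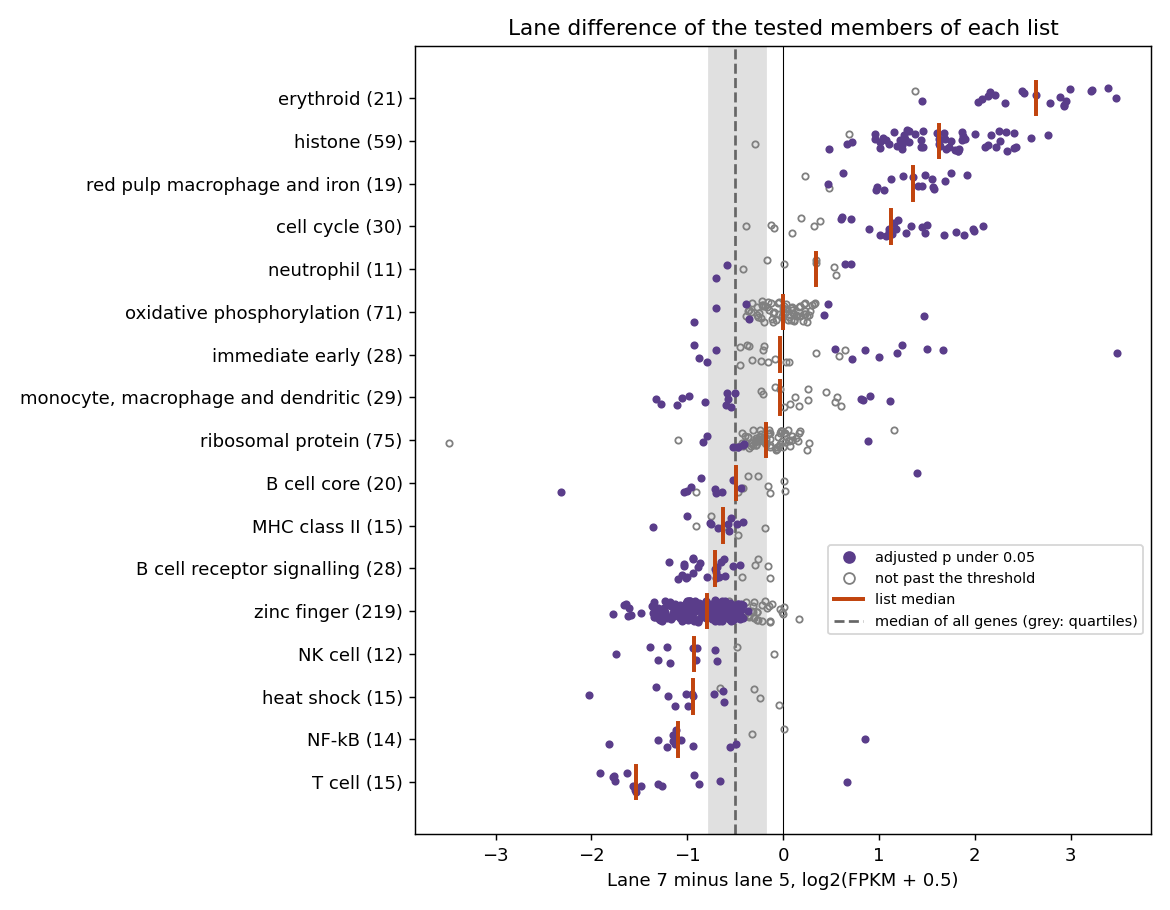
Lane difference of each tested member of 17 gene lists, with the number of members tested in brackets, on log2(FPKM + 0.5). The red bars mark list medians, of which those of the erythroid, histone, red pulp macrophage and cell cycle lists lie between 1.12 and 2.64 and that of the T cell list, at -1.54, is farthest to the left of the all-gene median of -0.50.

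Red cell genes had the largest list median. Of 26 erythroid genes listed, 21 were tested and 20 were higher in lane 7, where 8.67% of all genes were, with a median difference of 2.64 (relative median 3.15) and a range of 1.37 to 3.47. Lanes did not overlap for 5 of the 21. Without cKO 1 the median was 3.57 and without cKO 4 it was 1.89. Trim10, an erythroid tripartite motif protein, stood at 72.7, 129 and 193 FPKM in lane 7 and at 11.1, 3.76, 57.4 and 5.25 FPKM in lane 5. In lane 5, 3 libraries were low and cKO 1 was under wild type 1, so the lanes did not overlap. The lane difference of Trim10 was 3.22 (SE 0.62, adjusted p = 0.00154). Alas2, the first enzyme of heme synthesis in red cell precursors, stood at 324, 535 and 802 FPKM in lane 7 and 64.05, 44.1, 229 and 45.6 FPKM in lane 5, a difference of 2.64 (SE 0.44, adjusted p = 0.000791). The same pattern, with cKO 1 the highest lane 5 library and below wild type 1, held for Tspo2, a translocator protein of erythroblasts (3.21), and Tmod1, a cap of the actin filaments of the red cell membrane skeleton (2.67). Carbonic anhydrase Car2 overlapped between lanes: it stood at 309, 506 and 891 FPKM in lane 7 and 48.2, 21.2, 319.9 and 27.7 FPKM in lane 5, so that cKO 1 exceeded wild type 1.

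Other genes named for a large difference, or as called members of their lists, included several that are abundant in red cells. Hbq1b, a globin of the alpha cluster, differed by 2.87, Smox, spermine oxidase, by 2.72, Prdx2, a peroxidase of red cells, by 2.27, Bpgm, which makes the oxygen-affinity regulator bisphosphoglycerate, by 2.24, Ube2l6, a conjugating enzyme of ISG15, by 2.33, and Bnip3l, which clears mitochondria from reticulocytes, by 1.46. In each of these cKO 1 was the highest lane 5 library. Except for Bnip3l, the choice of these genes required lanes that do not overlap. The adult globins could not be tested, since their rows lacked the status OK in some libraries and their near-identical copies share reads. The Hbb-b1 row held 5888 FPKM in wild type 1 and 916.8, 530.7, 2906 and 328.1 FPKM in lane 5, and in cKO 2 and cKO 3 it was listed at 0 with the status HIDATA, which marks too many fragments for an estimate. In bulk RNA, more red cell precursors and more RNA per such cell cannot be told apart.

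The promoter windows of Alas2 and Trim10 are shown because these called members of the list hold AGATAA, an extended form of the motif bound by GATA factors of the red cell lineage. Each window runs from 250 bases before to 50 after the gene's start, on the strand of the gene, from RefSeq on GRCm38.p6, and capitals mark AGATAA or its reverse complement TTATCT.
Alas2, chrX:150547167-150547466, plus strand: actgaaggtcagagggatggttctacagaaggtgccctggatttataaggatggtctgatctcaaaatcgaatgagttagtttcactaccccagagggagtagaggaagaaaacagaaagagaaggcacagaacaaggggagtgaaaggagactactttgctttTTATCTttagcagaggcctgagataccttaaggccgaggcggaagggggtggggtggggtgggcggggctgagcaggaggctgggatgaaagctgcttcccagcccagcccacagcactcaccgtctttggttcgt
Trim10, chr17:36869324-36869623, plus strand: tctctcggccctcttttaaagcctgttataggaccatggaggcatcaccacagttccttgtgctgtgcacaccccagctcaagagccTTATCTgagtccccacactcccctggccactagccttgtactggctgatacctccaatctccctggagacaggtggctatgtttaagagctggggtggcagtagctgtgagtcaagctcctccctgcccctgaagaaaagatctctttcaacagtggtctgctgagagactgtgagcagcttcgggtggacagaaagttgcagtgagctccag
The motif was found on either strand in 7 of the 16 erythroid genes with a promoter entry (43.8%), among 25 listed genes present in the table, and in 12.7% of 27025 genes with an entry. This is a match of letters in one window per start, not a measured binding site.

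Genes of dividing cells moved with the red cell genes. Of 30 cell cycle genes tested 23 were higher in lane 7, with a median of 1.12 (relative 1.63), and of 59 replication-dependent histone genes 57 were higher, with a median of 1.62 (relative 2.13, and as deposited 1.00 without cKO 4). Nusap1, a spindle protein, stood at 19.9, 31.6 and 48.7 FPKM in lane 7 and 4.72, 2.48, 19.8 and 5.14 FPKM in lane 5, a difference of 2.09 (SE 0.38, adjusted p = 0.00116). Lane 5 library cKO 1 was almost level with wild type 1, and the other 3 lane 5 libraries were lower. Cdk1, the kinase of mitotic entry, overlapped between lanes, at 10.2, 18.4 and 33.3 FPKM in lane 7 and 3.02, 1.401, 13.8 and 3.27 FPKM in lane 5. Hist1h2bl, a core histone gene, stood at 165, 269 and 465 FPKM in lane 7 and 42.4, 19.1, 153 and 31.5 FPKM in lane 5. The 7 cell cycle genes that were not called, named after their values were seen, were the Mcm genes of the replicative helicase, whose differences lay between -0.39 (Mcm4) and 0.32 (Mcm2), and Rrm1, a subunit of ribonucleotide reductase (0.39). Histone transcripts of the replication-dependent type lack a poly(A) tail, and the labels name total RNA and no poly(A) step.

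**Figure D2:**
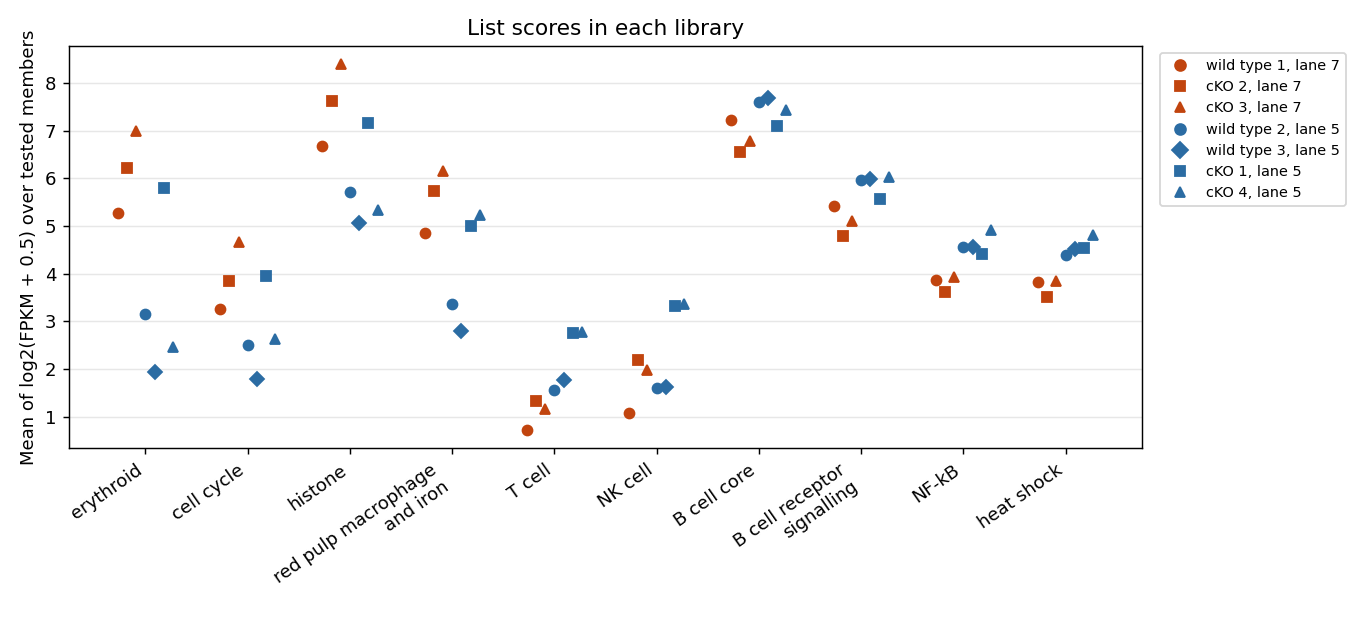
Score of 10 gene lists in each library, the mean of log2(FPKM + 0.5) over the tested members, lane 7 in orange and lane 5 in blue, with a marker for each library. In the erythroid, cell cycle and histone lists cKO 1 of lane 5 lies among the lane 7 libraries. In the B cell receptor signalling, NF-kB, heat shock and T cell lists all lane 5 libraries lie above all lane 7 libraries. Of all genes tested, 54.9% were lower in lane 7 without overlap.

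The erythroid score, the mean of log2(FPKM + 0.5) over the 21 tested genes, was 5.28, 6.22 and 6.996 in lane 7 and 3.16, 1.93, 5.81 and 2.46 in lane 5. The cell cycle score was 3.26, 3.84 and 4.66 in lane 7 and 2.50, 1.80, 3.96 and 2.63 in lane 5, and the histone score 6.69, 7.63 and 8.40 against 5.72, 5.08, 7.17 and 5.34. In all 3 scores cKO 1 lay above wild type 1 and the other lane 5 libraries below every lane 7 library. The lane difference within genotype was 2.60 for the erythroid and 1.52 for the histone score, each with the smallest p that a two-sided exact permutation of lanes within genotype allows (0.0556), and 1.04 for the cell cycle score (p = 0.167). With the erythroid score as a further term of the fit, an alternative added after the data were seen, the median difference of the cell cycle list was -0.10 and that of the histone list 0.18. In that fit 252 genes (2.5%) were higher and 1606 (16.0%) lower in lane 7. It leaves 3 residual degrees of freedom, and limma then used the spread shared by genes of like level in place of each gene's own, so its calls rest on that shared spread.

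Genes of red pulp macrophages were also higher in lane 7, and they kept their difference in the fit with the erythroid score. Of 19 genes tested 17 were higher, with a median of 1.35 (relative 1.86), and with the erythroid term 15 were called higher and the median was 1.30. Cd5l, a secreted protein of tissue macrophages, stood at 26.7, 50.05 and 76.01 FPKM in lane 7 and 5.19, 3.03, 22.3 and 21.7 FPKM in lane 5, a difference of 1.92 (SE 0.26, adjusted p = 0.000364). Its lanes did not overlap, as in 3 of the 19 genes, and within lane 5 both cKO libraries were above both wild type libraries. C1qb, a chain of complement component C1q, stood at 61.00, 118 and 163 FPKM in lane 7 and 12.1, 8.26, 56.4 and 62.9 FPKM in lane 5, with wild type 1 below cKO 4 of lane 5. Timd4, a receptor for dying cells, differed by 1.56 (SE 0.24), without overlap. The ferritin chain genes Ftl1 and Fth1, the most abundant of the list and used by many cell types, differed by 0.62 (adjusted p = 0.0353) and 0.48 (adjusted p = 0.066), and the call of Ftl1 was lost in 5 of the 7 fits that leave out 1 library (adjusted p up to 0.138). The score of the list was 4.85, 5.73 and 6.16 in lane 7 and 3.36, 2.79, 4.997 and 5.24 in lane 5. The score overlapped between lanes, since both cKO libraries of lane 5 were above wild type 1 (exact permutation of lanes within genotype, p = 0.0556). The list median was 2.08 between the wild type libraries and 0.90 between the cKO libraries. Without wild type 1, the only wild type library of lane 7, the lane difference is that of the cKO libraries.

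**Figure D3:**
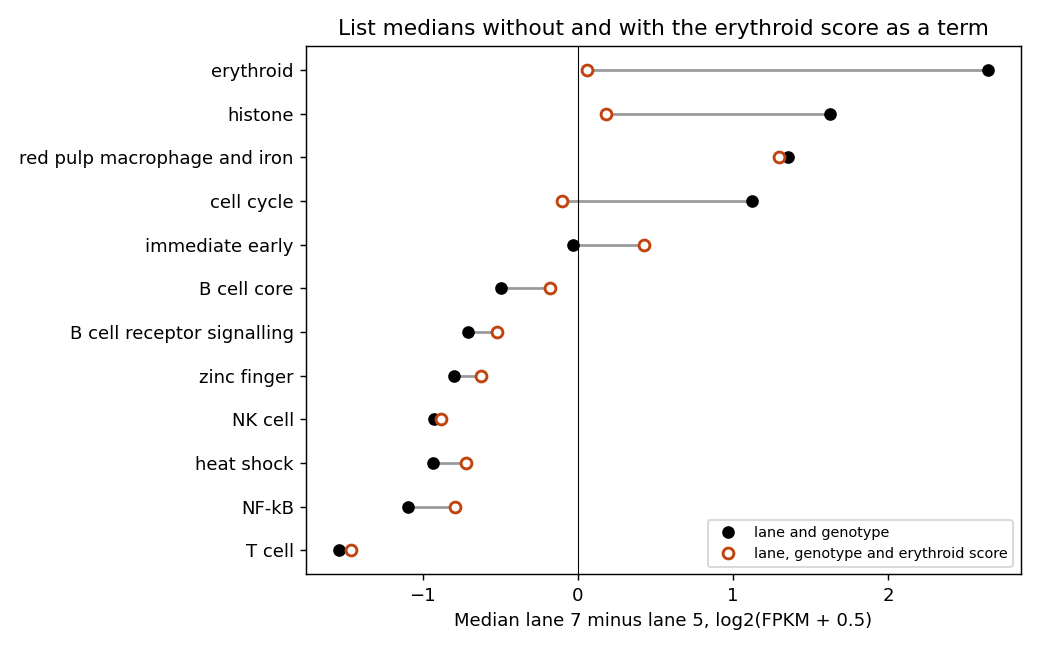
Median lane difference of 12 gene lists on log2(FPKM + 0.5), fitted with lane and genotype (black) and with the erythroid score as a further term (open orange). The erythroid list makes up that score, so its own move from 2.64 to 0.06 is by construction. The score itself differed between lanes by 2.60, so the lane and score terms are not independent. The cell cycle list moved from 1.12 to -0.10 and the histone list from 1.62 to 0.18, while the red pulp macrophage list (1.35 and 1.30) and the T cell list (-1.54 and -1.46) moved little.

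Some of the genes with large differences had another order of libraries than the red cell genes. Atf3, Plk2 and Rasd1 were named for the size of their difference and Cd69 as a list member, and they are not a list of their own. Atf3, a transcription factor induced by many stresses, had the largest difference of the genes named by size. It stood at 42.9, 37.97 and 61.7 FPKM in lane 7 and 1.84, 1.06, 3.62 and 11.5 FPKM in lane 5. All lane 7 libraries were high, and cKO 4, with an erythroid score of 2.46, was the highest of lane 5. Atf3 (chromosome 1, 191170297 to 191183333 as deposited, in a table whose positions overlap GRCm38 genes) differed by 3.48 (SE 0.41, adjusted p = 0.00023). Plk2, a polo-like kinase induced by stress and growth signals, stood at 53.8, 36.9 and 51.5 FPKM in lane 7 and 3.204, 2.27, 6.87 and 14.6 FPKM in lane 5, a difference of 2.87 (SE 0.38, adjusted p = 0.000338). Rasd1, a small GTPase induced by glucocorticoids, stood at 14.1, 4.96 and 6.85 FPKM in lane 7 and 1.24, 0.4205, 0.681 and 1.29 FPKM in lane 5. Cd69, an early activation antigen that keeps lymphocytes in tissue, stood at 175, 95.1 and 100.4 FPKM in lane 7 and 44.9, 40.2, 25.5 and 50.5 FPKM in lane 5, a difference of 1.67 (SE 0.24, adjusted p = 0.000421). Its lanes were apart, with the highest value in wild type 1, the lane 7 library with the lowest erythroid score.

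Of the 217 genes that were called higher, had lanes apart and could be named, 95 were also called in the fit with the erythroid score. The 12 with the largest difference in that fit, a rule added after the data were seen, were Atf3 (4.17), Plk2 (3.29), Rasd1 (2.74), Maff (2.45), Dusp5 (2.35), Apoc1 (2.25), Id1 (2.24), Cd69 (2.22), Nfil3 (2.17), Ccl2 (2.01), Bhlhe40 (1.93) and Cxcl2 (1.91), each value the log2 lane difference in that fit. Maff and Nfil3 are leucine zipper transcription factors, Bhlhe40 and Id1 transcriptional regulators of the helix-loop-helix family, Dusp5 a nuclear phosphatase of ERK, Ccl2 and Cxcl2 chemokines for myeloid cells, and Apoc1 an apolipoprotein of macrophages. Dusp5 stood at 34.9, 25.2 and 29.6 FPKM in lane 7 and 5.73, 4.47, 7.27 and 14.9 FPKM in lane 5. Maff stood at 4.68, 4.02 and 6.201 FPKM in lane 7 and 0.559, 0.406, 0.5599 and 1.13 FPKM in lane 5. In both genes cKO 4 was the highest lane 5 library and remained below every lane 7 library. Cxcl2 and Ccl2 were low, at no more than 4.38 and 3.37 FPKM in any library. Of 14 genes in the unfolded protein response list 1 was higher and 6 lower, where 8.67% and 58.2% of all genes were. The list median was -0.32 (relative 0.19). The gene higher was Dnajb9, a chaperone cofactor of the endoplasmic reticulum. It stood at 45.95, 31.7 and 29.3 FPKM in lane 7 and 18.8, 15.9, 10.9 and 21.1 FPKM in lane 5. Those lower included Xbp1 (-1.05) and Dnajc3 (-0.94).

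**Figure D4:**
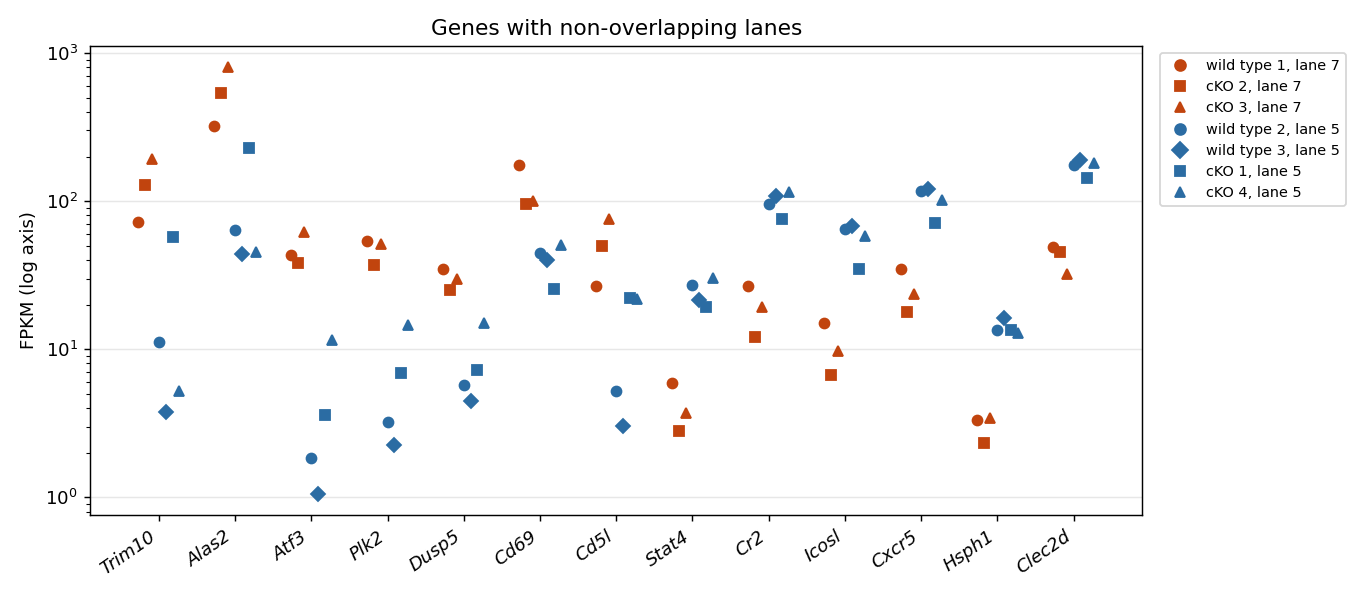
FPKM on a log axis of 13 genes in each library, lane 7 in orange and lane 5 in blue. Trim10 and Alas2 are high in lane 7 and in cKO 1 of lane 5, Atf3, Plk2, Dusp5 and Cd69 are high in all lane 7 libraries, and Stat4, Cr2, Icosl, Cxcr5, Hsph1 and Clec2d are low in all lane 7 libraries.

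The immediate early list as a whole did not move in 1 direction as deposited. Of 28 genes tested 9 were higher and 4 lower, where 8.67% and 58.2% of all genes were, and after median centring 14 were higher and 2 lower, where 24.3% and 23.9% were. As deposited the list had a median of -0.03, which is 0.48 above the median of all genes, and the list score overlapped between lanes (exact permutation p = 0.278). The higher genes were Atf3, Cd69, the G protein regulator Rgs1 (1.502), Ppp1r15a, which restores translation after stress (1.24), Ier3 (1.19), the transcription factors Klf4 (0.999), Klf6 (0.72) and Fosl2 (0.54), and Tnfaip3, an inhibitor of NF-kB (0.85). The lower genes were Ier5 (-0.93), Ier2 (-0.87), Egr3 (-0.79) and Zfp36 (-0.71), of which Zfp36 encodes an RNA-binding protein that shortens transcripts with AU-rich ends. Of the genes counted here all but Atf3, Cd69 and Ier3 were named after their values were seen. Jun and Fos, also named so, differed by -0.45 and -0.20 and missed the threshold, and both were highest in cKO 4 of lane 5. The window of Ppp1r15a (RefSeq, GRCm38.p6, 250 bases before to 50 after the start) is shown because it holds TGACGTCA, the palindromic site bound by the ATF and CREB factors, in capitals.
Ppp1r15a, chr7:45526219-45526518, minus strand: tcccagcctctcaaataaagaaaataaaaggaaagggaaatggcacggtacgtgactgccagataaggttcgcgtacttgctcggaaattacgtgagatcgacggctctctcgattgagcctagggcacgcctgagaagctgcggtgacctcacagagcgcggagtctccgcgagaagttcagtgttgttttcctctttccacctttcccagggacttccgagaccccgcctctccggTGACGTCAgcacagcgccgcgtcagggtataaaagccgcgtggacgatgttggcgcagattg
The motif was found in 3 of 24 immediate early genes with a promoter entry (12.5%) and in 2.03% of 27025 genes with an entry.

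Most T cell, NK cell and plasmacytoid dendritic genes were lower in lane 7 as deposited, and most T cell genes also after median centring. Of 15 T cell genes tested 14 were lower, where 58.2% of all genes were, with a median of -1.54 or -1.03 relative to all genes, and 11 were lower after median centring, where 23.9% of all genes were. Lat, an adaptor of the T cell receptor, stood at 0.779, 1.24 and 0.755 FPKM in lane 7 and 2.53, 3.297, 5.66 and 5.33 FPKM in lane 5, a difference of -1.78 (SE 0.19, adjusted p = 0.000189). The values were low in both lanes, and the lanes did not overlap. Tcf7, a transcription factor of T cells, differed by -1.57 and Zap70, the kinase of the T cell receptor, by -1.48. Of 22 listed T cell genes in the table, 12 to 18 were below 1 FPKM in the lane 7 libraries and 4 to 10 in the lane 5 libraries. Foxp3 in cKO 3 was the single value listed at 0. The score of the list was 0.72, 1.33 and 1.17 in lane 7 and 1.55, 1.78, 2.75 and 2.78 in lane 5. It did not overlap between lanes, and 54.9% of all genes were lower without overlap. The 1 T cell gene not lower was Ccr7, a homing receptor that B cells also carry. It was higher by 0.66, a call lost without wild type 1 (0.53, adjusted p = 0.133), cKO 3 (0.64, 0.0639) or cKO 1 (0.48, 0.0875). Ccr7 was the most abundant gene of the list, whose summed FPKM was 140.0 to 169 in lane 7 and 120.4 to 207 in lane 5. With the erythroid term 12 genes were lower and the median was -1.46.

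Of 12 NK cell genes 10 were lower, with a median of -0.93 (relative -0.42), and 4 were lower after median centring, a share nearer to that of all genes (23.9%). Their score overlapped between lanes and was 1.08, 2.195 and 1.98 in lane 7 and 1.5996, 1.63, 3.32 and 3.36 in lane 5. Ccl5, a chemokine of NK and T cells, stood at 8.703, 21.7 and 22.3 FPKM in lane 7 and 23.6, 19.96, 44.96 and 84.6 FPKM in lane 5. Within each lane the cKO libraries were above the wild type libraries, and cKO 2 and cKO 3 of lane 7 lay between both wild type libraries of lane 5. Gzma, a granzyme, differed by -0.10 (adjusted p = 0.634). Of 9 plasmacytoid dendritic genes 8 were lower, with a median of -0.93 (relative -0.43), and after median centring 3 were lower and 1 higher. Siglech, a lectin of these cells, stood at 0.644, 2.702 and 1.35 FPKM in lane 7 and 1.64, 2.37, 11.5 and 7.86 FPKM in lane 5. Spn, which encodes CD43 itself, stood at 3.38, 8.81 and 10.3 FPKM in lane 7 and 4.94, 6.19, 30.6 and 28.8 FPKM in lane 5, a difference of -1.21 (SE 0.20, adjusted p = 0.000829). Both cKO libraries of lane 5 exceeded all other libraries in Spn and in Siglech. In Spn the wild type libraries of lane 5 lay between wild type 1 and the lane 7 cKO libraries. The summed FPKM of the NK cell list was 29.7 to 83.6 in lane 7 and 49.6 to 198 in lane 5, and the part of these cells in the lane difference of other genes was not tested.

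Other myeloid lists did not move together. Of 29 monocyte, macrophage and dendritic genes 4 were higher and 11 lower, with a median of -0.03 (relative 0.47). The share lower was below the 58.2% of all genes, and after median centring the balance turned, with 15 higher and 5 lower. Those lower as deposited included Itgax, an integrin of dendritic cells (-1.32), Cd209a, a lectin of dendritic cells (-1.27), and Ly6c2, a surface protein of monocytes (-1.05). The neutrophil genes S100a8 and S100a9, calcium-binding proteins, differed by -0.17 and 0.00 with adjusted p of 0.569 and 0.99. In S100a8 the lowest and highest libraries were wild type 1 of lane 7 at 15.3 FPKM and cKO 4 of lane 5 at 96.7 FPKM. Of 11 neutrophil genes 2 were higher and 2 lower, with a median of 0.34 (relative 0.85). That median was -0.01 without wild type 1, which is the median between the cKO libraries. After median centring 5 neutrophil genes were higher and 0 lower, where 24.3% and 23.9% of all genes were. Among 10 platelet and megakaryocyte genes 5 were higher and 1 lower, where 8.67% and 58.2% of all genes were. The list median was 0.44 (relative 0.94), and after median centring 7 were higher and 0 lower. The list score overlapped between lanes (exact permutation of lanes within genotype, p = 0.222). Those higher included Tubb1, a tubulin of platelets (0.93, and 0.78 with adjusted p = 0.063 without wild type 1). The gene lower was Itgb3, an integrin of platelets (-0.72). In Ppbp, a platelet chemokine, cKO 4 of lane 5 was the highest library at 30.0 FPKM. Among 5 stromal and endothelial genes 3 were lower and 1 higher, the scavenger receptor Stab2 of sinusoidal endothelium (0.66, not called without wild type 1 at 0.53, adjusted p = 0.101, or cKO 3 at 0.60, adjusted p = 0.0595). Kit, the stem cell factor receptor, was the only mast cell or basophil gene tested (-1.18), and of 3 progenitor genes 2, Kit and Ly6a (-1.69), were lower.

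B cell core genes had about the median of all genes as a list, while single members differed widely. Of 20 genes 10 were lower and 1 higher, a share lower that is below the 58.2% of all genes. The median was -0.49, which is 0.01 above the median of all genes, and after median centring 3 genes were higher and 5 lower. Its score was 7.23, 6.55 and 6.78 in lane 7 and 7.61, 7.68, 7.09 and 7.43 in lane 5, so B cell genes were abundant in all libraries. Cr2, the complement receptor of follicular and marginal zone B cells, stood at 26.5, 11.995 and 19.2 FPKM in lane 7 and 96.3, 108, 75.6 and 116 FPKM in lane 5. The lanes were far apart in both genotypes, and the difference of Cr2 (chromosome 1) was -2.32 (SE 0.23, adjusted p = 0.000147). The chemokine receptor Cxcr5, which draws B cells into follicles, stood at 34.9, 17.8 and 23.6 FPKM in lane 7 and 117, 120.3, 71.01 and 101.2 FPKM in lane 5, a difference of -1.91 (SE 0.19, adjusted p = 0.000127). Icosl, the ligand by which B cells engage ICOS on T cells, stood at 15.1, 6.65 and 9.78 FPKM in lane 7 and 64.5, 67.4, 34.9 and 57.7 FPKM in lane 5, a difference of -2.28. By contrast Cd79b, a signalling chain of the B cell receptor, stood at 1051, 611 and 613 FPKM in lane 7 and 1141, 1083, 612 and 775 FPKM in lane 5, and its difference of -0.13 missed the threshold (adjusted p = 0.637). The single core gene called higher was Cd24a (1.40), which red cell precursors carry too. Cd79b and Cd24a were named after their values were seen.

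The other largest decreases among genes named by size were those of Stat4, a transcription factor of cytokine signalling (-2.41), Igj, the joining chain of polymeric antibodies (-2.36), Kbtbd11 (-2.26), Il9r, the receptor of interleukin 9 (-2.24), Sap25, a component of a histone deacetylase complex (-2.15), Calhm2, a channel of the calcium homeostasis modulator family (-2.12), Ccr6, a chemokine receptor of B cells (-2.08), Ffar2, a receptor of short-chain fatty acids (-2.07), Pde3b, a phosphodiesterase (-2.06), and the pseudogene Pisd-ps3 (-2.06), whose reads may be shared with its parent gene. The 12 leading decreases, Cr2 and Icosl included, were chosen among called genes with lanes apart. All 12 were also called with the erythroid term, as were 6 of the 12 leading increases. Igj stood at 14.3, 2.55 and 7.66 FPKM in lane 7 and 32.6, 26.0, 50.4 and 44.4 FPKM in lane 5. Its lane difference was -0.998 in wild type and -3.26 in cKO, without a call for the interaction described below. Stat4 stood at 5.87, 2.81 and 3.699 FPKM in lane 7 and 27.2, 21.5, 19.2 and 30.1 FPKM in lane 5. Kbtbd11 stood at 2.402, 1.41 and 1.94 FPKM in lane 7 and 12.2, 11.99, 9.75 and 11.4 FPKM in lane 5, an even gap over both genotypes. Among abundant genes Clec2d, a ligand of an NK cell receptor, had the largest decrease: it stood at 49.2, 45.1 and 31.99 FPKM in lane 7 and 176, 189, 143 and 179.7 FPKM in lane 5, a difference of -1.99 (SE 0.19, adjusted p = 0.000127). Abundant genes with smaller decreases were Gimap6, a lymphocyte GTPase (-1.19), Shisa5 (-1.11), the fatty acid desaturase Scd1 (-1.09), the class I molecule H2-K1 (-1.05), the actin-binding protein Cnn2 (-0.92), Ptprc, which encodes CD45 (-0.90), and Spib, a transcription factor of B cells (-0.86).

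Follicular and marginal zone lists had shares lower not far above that of all genes. Of 10 follicular genes 7 were lower and 1 higher, with a median of -0.74 (relative -0.23), and of 14 marginal zone genes 9 were lower and 1 higher, with a median of -0.85 (relative -0.35), where 58.2% of all genes were lower. Notch2, the receptor that directs marginal zone fate, stood at 11.96, 9.87 and 11.9 FPKM in lane 7 and 34.3, 34.8, 26.2 and 33.6 FPKM in lane 5, a difference of -1.44 (SE 0.15, adjusted p = 0.000166), and the Notch regulator Dtx1 differed by -1.67. Of 28 B cell receptor signalling genes 23 were lower, with a median of -0.71 (relative -0.20), and 19 were lower without overlap, where 54.9% of all genes were. Members lower included Dapp1, an adaptor of the receptor (-1.19), Malt1, a protease of the pathway to NF-kB (-1.09), and Blnk, a linker of the receptor to its kinases (-1.03). Of 15 genes of MHC class II presentation 10 were lower, a share near that of all genes, with a median of -0.62 (relative -0.12), among them Ciita, the activator of class II genes (-1.36), Rfx5, a factor that binds their promoters (-0.999), and H2-Oa, which limits peptide loading (-0.76). Of 15 germinal centre and activation genes 7 were lower, a share below that of all genes, among them the repressor Bcl6 (-1.56) and the death receptor Fas (-0.86). In this list 2 genes were higher, Cd69 among them, and the median was -0.49 (relative 0.01), or -0.26 as deposited without cKO 4. Plasma cell genes were lower in 5 of 13, a share below the 58.2% of all genes, and their median was -0.26 (relative 0.24). After median centring 4 were higher and 3 lower. Those lower as deposited included Xbp1, a transcription factor of secretory cells (-1.05), and Edem1, a factor of protein degradation (-0.86). Of 9 B-1 cell genes 5 were lower, a share near that of all genes, with a median of -0.81 (relative -0.31). Those lower included Fcrl5, an Fc receptor homologue (-1.17), and Cd5, which T cells share (-0.88). Of 6 precursor genes 2 were higher, Sox4 (0.67) among them, and 2 lower, Il7r (-1.75), which T cells share, and the phosphatase gene Ptprj (-0.75). After median centring 13 of the receptor signalling genes, 5 of the marginal zone genes, 3 of the follicular genes and 2 of the class II genes were lower, where 23.9% of all genes were. The class II share was below that of all genes and the follicular share near it.

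Chaperone and NF-kB lists had medians below that of all genes, a difference that was not tested. Of 15 heat shock genes 11 were lower, where 58.2% of all genes were, with a median of -0.94 (relative -0.43), and 7 were lower after median centring, where 23.9% of all genes were. Hsph1, a large cytosolic chaperone, stood at 3.304, 2.32 and 3.43 FPKM in lane 7 and 13.6, 16.2, 13.4 and 12.8 FPKM in lane 5, a difference of -2.02 (SE 0.16, adjusted p = 0.000109). The lanes were far apart, with little spread within each. Chordc1, a cochaperone of Hsp90, differed by -1.32, and Dnaja1, a cofactor of Hsp70, by -1.20. Of 14 NF-kB genes 11 were lower, with a median of -1.09 (relative -0.59), and 9 were lower after median centring. Traf1, an adaptor of tumour necrosis factor receptors, stood at 2.86, 3.48 and 5.06 FPKM in lane 7 and 10.98, 10.53, 13.1 and 20.98 FPKM in lane 5, a difference of -1.81 (SE 0.19, adjusted p = 0.000158). Bcl3, an atypical inhibitor of NF-kB, differed by -1.31 and Traf2, another receptor adaptor, by -1.21. The NF-kB score was 3.87, 3.62 and 3.93 in lane 7 and 4.57, 4.57, 4.41 and 4.91 in lane 5, without overlap. The exception called higher was Tnfaip3.

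Of 25 interferon response genes 18 were lower, with a median of -0.74 (relative -0.24), and 11 were lower after median centring, where 58.2% and 23.9% of all genes were. Stat2, which carries interferon signals to the nucleus, stood at 2.82, 2.61 and 2.85 FPKM in lane 7 and 8.88, 9.97, 9.19 and 10.2 FPKM in lane 5, a difference of -1.62 (SE 0.14, adjusted p = 0.000109). Ifit3 and Ifit2, antiviral proteins induced by interferon, differed by -1.34 and -1.23. The 2 genes called higher, named after their values were seen, were Rsad2 (2.29) and Isg15 (1.02), both antiviral proteins induced by interferon. Rsad2 stood at 132, 209 and 278 FPKM in lane 7 and 32.4, 13.3, 148 and 22.1 FPKM in lane 5, so cKO 1 lay within the range of lane 7 and the other lane 5 libraries below it, as in Car2. Of 19 genes of hypoxia and glycolysis 12 were lower as deposited and 5 after median centring, shares near those of all genes. Those lower included Ddit4, an inhibitor of mTOR signalling (-1.36), and Pfkp, a phosphofructokinase (-1.03), and only Bnip3l of the list was called higher.

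Lists of genes that every cell uses had different medians. The transcript lengths of these lists were not compared, so function and length, described below, cannot be told apart here. Oxidative phosphorylation genes had a median of -0.00 over 71 genes, with 3 higher and 4 lower, which is 0.50 above the median of all genes, and 55 of them were higher after median centring. The called members included Cox6b2 (1.47), Cox6a2 (-0.93) and Sdha (-0.71), of which Cox6b2 and Cox6a2 are tissue-restricted subunits of cytochrome oxidase. Cox6a2 is also in the plasmacytoid dendritic list, and its call was lost without cKO 2 (-0.89, adjusted p = 0.078) or cKO 3 (-0.77, adjusted p = 0.0784). Ribosomal protein genes had a median of -0.18 over 75 genes, with 1 higher and 7 lower, Rpl7l1 (-0.84) among those lower. After median centring 21 of them were higher, a share not far above the 24.3% of all genes. Proteasome genes had a median of -0.26 with 9 of 37 lower, below the share of all genes, among them the immunoproteasome subunits Psmb8 (-0.77) and Psmb9 (-0.59). Of 219 zinc finger genes 189 were lower, with a median of -0.80 (relative -0.30), and of 38 chromatin regulators 33 were lower, with a median of -0.72 (relative -0.21), where 58.2% of all genes were. After median centring 102 zinc finger genes and 14 chromatin regulators were lower, where 23.9% of all genes were. Spliceosome genes were near all genes, with 21 of 34 lower as deposited, a relative median of -0.02, and 7 lower and 6 higher after median centring. Zfp866 stood at 1.86, 1.35 and 1.700 FPKM in lane 7 and 6.58, 7.42, 6.55 and 6.95 FPKM in lane 5, a difference of -1.77 (SE 0.15, adjusted p = 0.000109), and Zfp712 and Zfp397 differed by -1.66 and -1.64. The chromatin remodellers Chd3, Smarca2 and Bptf differed by -1.28, -1.21 and -1.07, and the splicing factors Snrnp200, Srsf1 and Prpf6 by -1.01, -0.97 and -0.96. Of 12 nuclear long noncoding RNAs 7 were lower, about the share of all genes, among them the host transcripts Mir17hg (-1.16), Snhg8 (-0.80) and Gas5 (-0.77).

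The lane difference also varied with transcript length, taken from the longest transcript of each gene name in GENCODE M21, a coding one where there was one, which 99.1% of the genes tested had. In 5 equal bins from short to long, with median lengths of 1193, 2098, 2995, 4146 and 6469 bases, the median lane difference was -0.23, -0.44, -0.54, -0.60 and -0.68. The share called lower was 33.3%, 53.7%, 61.9%, 67.6% and 75.3% in the same order, and the share called higher 12.2%, 10.2%, 8.72%, 6.52% and 5.61%. Without erythroid, histone and small RNA genes the medians ran from -0.27 in the shortest to -0.68 in the longest bin. Over 5 bins of GC content the median stayed between -0.49 and -0.53, and over 5 bins of mean FPKM it was -0.48, -0.59, -0.59, -0.52 and -0.33 from low to high. Genes are not independent replicates, so these are descriptions without a test. The 95% interval of the lane difference lay within 0.5 of no difference on the log2 scale for 8.24% of the genes tested.

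**Figure D5:**
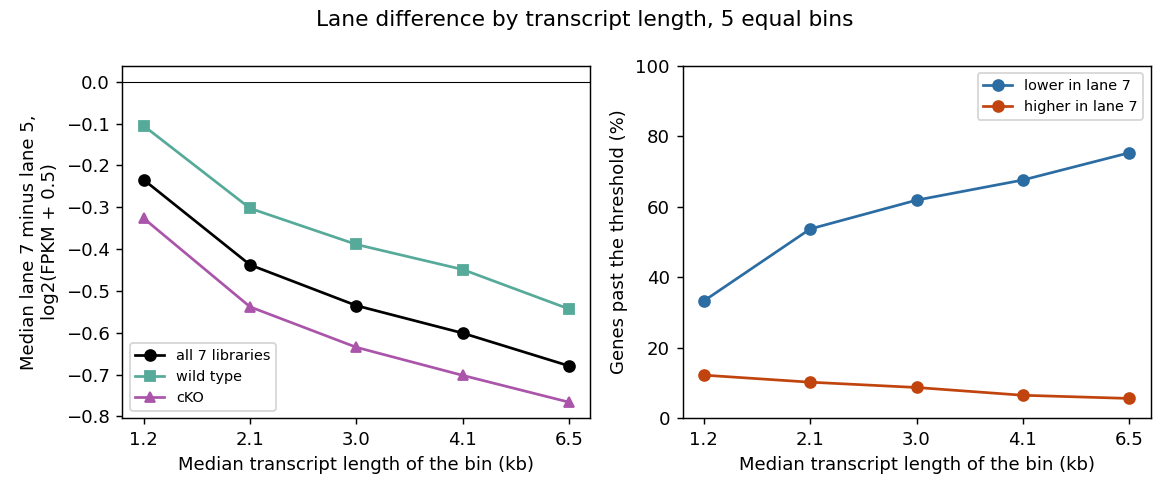
Left, median lane difference on log2(FPKM + 0.5) in 5 equal bins of transcript length, placed by bin in order and labelled with the median length, for all 7 libraries and for each genotype. Right, percent of genes past the threshold in each direction. The median falls from -0.23 in the shortest to -0.68 in the longest bin, and the share lower in lane 7 grows from 33.3% to 75.3%.

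Small RNA genes had a median lane difference of 1.46 over 77 genes tested. That median rests on cKO 4: without that library it was 0.47. Of the 77 genes 21 were higher and 1 lower, the latter being the host transcript Mir17hg, which is 3536 bases long. After median centring 13 were higher, a share below the 24.3% of all genes, and 1 lower. Rmrp, the RNA of the RNase MRP complex, stood at 95972, 61589 and 60285 FPKM in lane 7 and 76349.5, 52915, 49242 and 9179 FPKM in lane 5, and its difference of 1.15 missed the threshold (adjusted p = 0.272). Rpph1, the RNA of RNase P, stood at 80846, 62708 and 46178 FPKM in lane 7 and 78431, 62867, 52539 and 6127 FPKM in lane 5. Both were lowest in cKO 4 and overlapped between lanes. The small nucleolar RNAs Snord17, Snord15b and Snord22, also among the 5 most abundant small RNA rows, had differences of 0.40, 0.85 and 2.14 with adjusted p of 0.568, 0.321 and 0.0974. FPKM divide by transcript length, so for rows this short they do not give a share of fragments. Two-sided exact permutation of lanes within genotype gave p = 0.111 for the small RNA share of summed FPKM, at 50.7% ± 8.15 in lane 7 (SD, n = 3) and 38.9% ± 19.2 in lane 5 (SD, n = 4).

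An interaction of lane and genotype, which tests whether the lane difference differed between wild type and cKO, was called by limma for 5 genes (0.0497%), all of them small RNA rows. An unadjusted p under 0.05 was reached by 213 of the 10065 genes, a smaller share than the 0.05 that would pass on average with no interaction. The fit leaves 3 residual degrees of freedom, so a gene that was not called is not shown to have the same lane difference in both genotypes. Described by genotype, the median of the red pulp macrophage list was 2.08 in wild type and 0.90 in cKO, that of the T cell list -1.12 and -1.62, that of the erythroid list 2.64 and 2.63, and that of the B cell receptor signalling list -0.56 and -0.86.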

How the data were processed

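The 7 libraries are RNA sequencing of total RNA prepared with a Nextera kit, per the labels' protocols. The authors deposited a table of FPKM values with a status for each library. The submitters' processing notes name TopHat2, Cufflinks, Cuffdiff and mm9, and versions are not given in the sources used here. Positions in the table overlap GRCm38 genes for 99.5% of 21440 symbols. The depth in reads is known only indirectly, through the weight of 1 fragment, so no counting intervals are given. Of 23845 rows, 10065 with the status OK in all libraries and a mean FPKM of at least 1 were tested. Log2(FPKM + 0.5) was fitted in limma 3.58.1 (R 4.3.3, eBayes with a trend) with genotype and lane, or with their interaction. Fold changes on this scale understate changes of low genes. Single values were compared by exact permutation.

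The genes named in the text were, among called genes with non-overlapping lanes, the 12 with the largest difference in each direction and the 8 in each direction with a mean FPKM of at least 100. Also named were up to 3 called members of each list by smallest p, the 2 most abundant members of lists of other cell types, the 5 most abundant small RNA genes, up to 6 interaction genes and Foxp1. Some genes that this rule selects are not reported here. Other genes are said to be named after their values were seen. The comparison and the gene lists were chosen with earlier results of these data known. Alternatives covered the pseudocount, filter, scaling, model terms and each library left out. A second deposited table was not used. The fits were tested on simulated data.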

Additional observations from a re-analysis of the deposited data

Results flagged for a closer look

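Of 196 values checked in the 4 lane 5 libraries, 26 had 1 library far from the other 3. A single group of normal values would pass this limit about 1 time in 20. The values checked are not independent, since many genes vary together, and the group holds both genotypes, so the count was not tested against chance. Library cKO 1 stood apart in 20, cKO 4 in 5 and wild type 2 in 1.

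In FPKM, cKO 1 was above the other lane 5 libraries in red cell genes, with Alas2 at 228.8, Bnip3l at 32.9, Bpgm at 92.3, Car2 at 319.9, Fech at 70.9, Hbq1b at 10.3, Prdx2 at 229, Smox at 26.5, Tmod1 at 7.09, Trim10 at 57.4, Tspo2 at 38.3 and Ube2l6 at 78.9. It was also above them in Cdk1 at 13.8, Nusap1 at 19.8, Hist1h3b at 104 and Hist3h2bb-ps at 50.5. It was below them in Notch2 at 26.2 FPKM. Its list scores were low as well, at 5.37 for follicular B cell, 5.58 for B cell receptor signalling and 6.84 for MHC class II presentation genes.

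Library cKO 4 was above the others in the platelet genes Clec1b at 3.52 and Ppbp at 30.0 FPKM, in Dapp1 at 23.0, in Smarca2 at 13.6 and in Vim, the intermediate filament gene vimentin, at 149 FPKM. Wild type 2 was above the others in Rpl13 at 179 FPKM.

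The lane difference differed between genotypes, by the interaction term in limma, for 5 small RNA genes. The interaction, cKO minus wild type on the log2 scale, was -11.95 for Mir3068, -5.40 for Mir1940, -7.07 for Mir1938, 11.07 for Snord32a and 4.24 for Snora2b. Mir3068 and Mir1940 were above 0 FPKM in wild type 1 alone. Mir1938 was listed at 0 in wild type 2 and wild type 3, and Snord32a and Snora2b were listed at 0 in cKO 1 and cKO 4.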

How the results depend on the processing

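The count of genes higher in lane 7 was 873 and that of genes lower in lane 7 was 5860. These counts were within 1.5 times of those values under the other pseudocounts, no filter, eBayes without a trend, robust eBayes, rescaling without small RNA genes, wild type alone and repeated symbols dropped. The higher count was 549 at a mean FPKM of at least 5, 2441 with median centring, 1809 with quantile normalization, 539 without the genotype term, 252 with the erythroid score, 543 at a threshold of 0.01 and 488 at a difference of at least 1. The lower count was 3698, 2407 and 3025 under the first 3 of these, 1606 with the erythroid score, 1063 at a difference of at least 1, 3892 in cKO alone and 2105 without cKO 1 and cKO 4, a setting added after the data were seen. A mean of at least 5 tests fewer genes, and single genotypes use fewer samples. Otherwise the cause was not tested. Leaving out each library gave 607 to 925 higher and 4928 to 5723 lower. Without wild type 1 no wild type library is left in lane 7, so the lane differences equal those in cKO alone. Without cKO 1 and cKO 4 they equal those in wild type alone, so these settings are not separate checks of a difference. Of 163 genes chosen by the naming rule, 140 kept their side of the threshold in every such fit.

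The 5 interaction calls became 21 with robust eBayes, 3 with median centring, 3 with quantile normalization and 0 with small RNA genes dropped (limma, 289 at an unadjusted p under 0.05), since the genes called are small RNA genes. Snora2b reversed to -0.060 in wild type alone, and without cKO 1 and cKO 4 the lane difference is the same by construction.

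With the replicate block the genes higher in lane 7 numbered 816 and the genes lower in lane 7 4022. The labels do not say that a number marks a shared animal or day. Deviations of equal numbers from their group means correlated at -0.41, -0.50 and -0.69, but equal numbers always lie on opposite lanes, so this cannot show whether they pair libraries. Robust eBayes, the replicate block, cKO alone and the erythroid fit gave limma infinite prior degrees of freedom, and their calls rest on a spread shared by genes of like level. FPKM are not counts, so a low gene's error was taken only from its spread across libraries.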
